A study of Mus musculus with 3 samples.

Results

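Genes of the tumor necrosis factor (TNF) superfamily were followed in granulocytic myeloid-derived suppressor cells (G-MDSCs) from mouse blood. The 10 genes were chosen by symbol: the ligands Tnf, Tnfsf10, Tnfsf13b, Tnfsf14 and Fasl, and the receptors Tnfrsf1a, Tnfrsf1b, Fas, Cd40 and Ltbr. All 10 were found among the 26655 genes of the expression tables. The rule used no measured level, but the genes were chosen with earlier results of these data known. Cells positive for CD11b and Gr1 came from peripheral blood of C57BL/6J mice, and the study's methods name B16F10, a mouse melanoma line placed under the skin of young adult female mice. The groups were normal mice without tumor, mice that had carried the tumor for 2 weeks (2Ws) and mice that had carried it for 3 weeks (3Ws), with 1 library per group. The cells were enriched on magnetic columns with an antibody to Ly6G, a granulocyte marker that B cells lack, and how many mice gave each library is not given in the sources used here. One label field counts the time with tumor in months where the sample descriptions and the design count it in weeks, and weeks were used. A title numbered 1 and a value column numbered 2 belong to the normal library, the only one of its group. With 1 library per group no test between conditions was possible, so ratios below compare libraries and their intervals cover counting error only.

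Ligands of this superfamily are mostly made as trimers anchored in the cell membrane, and several are cut off by proteases and act as soluble cytokines. Receptors fall into those with a death domain, which can recruit FADD and caspase-8, and those that bind TRAF adaptors and switch on NF-kB and MAP kinases. Neutrophils and their precursors carry both TNF receptors, and TNF primes their oxidative burst and can hasten or delay their death. In marrow and blood the same family steers B cell survival through BAFF, death of target cells through FasL and TRAIL, and licensing of antigen-presenting cells through CD40.

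The promoters of 3 genes are shown because Tnfsf10 had the widest ratio between libraries, Tnfrsf1b was among the most abundant and held both interferon-type motifs searched, and Tnf is the founding gene. Each runs from 250 bases before to 50 bases after the RefSeq start site in build GRCm38.p6, on the strand of the gene, and capitals mark motif matches.
Tnfsf10, chr3:27316827-27317126, plus strand: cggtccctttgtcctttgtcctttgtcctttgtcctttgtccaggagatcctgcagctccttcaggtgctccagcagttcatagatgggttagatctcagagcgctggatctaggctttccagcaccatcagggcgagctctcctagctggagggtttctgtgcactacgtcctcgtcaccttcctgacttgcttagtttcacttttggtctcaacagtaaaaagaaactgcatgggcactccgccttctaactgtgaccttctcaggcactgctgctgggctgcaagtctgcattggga
Tnfrsf1b, chr4:145246821-145247120, minus strand: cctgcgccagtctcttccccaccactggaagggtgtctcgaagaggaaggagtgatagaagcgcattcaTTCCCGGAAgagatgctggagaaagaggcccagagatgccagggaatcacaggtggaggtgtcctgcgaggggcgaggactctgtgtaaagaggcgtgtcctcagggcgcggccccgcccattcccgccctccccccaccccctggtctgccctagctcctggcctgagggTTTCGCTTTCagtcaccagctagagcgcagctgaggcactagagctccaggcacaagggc
Tnf, chr17:35201958-35202257, minus strand: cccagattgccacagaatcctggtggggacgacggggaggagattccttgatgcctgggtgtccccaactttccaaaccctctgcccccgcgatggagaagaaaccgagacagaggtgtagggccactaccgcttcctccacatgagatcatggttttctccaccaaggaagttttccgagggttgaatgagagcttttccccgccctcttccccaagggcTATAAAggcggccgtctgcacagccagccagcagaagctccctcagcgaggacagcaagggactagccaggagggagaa
The capitals in Tnfrsf1b mark a TTCNNNGAA match, the letters of a gamma-interferon activated site, at -181 to -173, and a match on the opposite strand to a pair of GAAA sites set 2 bases apart, the core of an interferon-stimulated response element, at -10 to -1. The capitals in Tnf mark the TATA box TATAAA at -29 to -24. Tnfsf10, known in humans and mice as an interferon-induced gene, had no match to any of the 4 motifs searched, which says only that these letters are not in this window.

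RefSeq promoters were found for 9 of the 10 genes, 10 promoters in all, and not for Cd40. The GAAA pair also matched in Tnfsf13b, at -16 to -7 of the second start site, and TTCNNNGAA also matched in Tnfrsf1a and Fas. The kappaB consensus matched in none of the 10 promoters. Both strands were searched. Of all 32851 promoters of this length, 3.44% held the GAAA pair, 8.3% held TTCNNNGAA, 8.46% held the kappaB consensus and 13.6% held TATAAA. The Tnfrsf1b promoter was 62.7% G or C and that of Tnfsf10 was 52.3%, beside a median of 52.7% over all promoters. Letters are a description of the window and say nothing of which factor was bound.

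Depth was even, at 17325747 reads in normal mice, 16549246 in 2Ws mice and 17075753 in 3Ws mice, and 10734, 10774 and 9579 genes reached 1 FPKM (fragments scaled to exon length and library size). The granulocyte genes Ly6g, Itgam and Csf3r were high in all 3 libraries, with Ly6g at 125 FPKM in normal mice, 114 in 2Ws mice and 190 in 3Ws mice, so the labelled cell type had its defining markers. The female-specific RNA Xist was at 0.00966, 24.7 and 0 FPKM in normal, 2Ws and 3Ws mice, while the Y-linked gene Ddx3y was at 19.9, 0 and 23.1 FPKM, so the normal and 3Ws libraries carried male RNA and the 2Ws library female RNA, against the female mice of the methods, and sex cannot be told apart from the 2Ws step. Genes that reached 1 FPKM in both libraries compared had a median log2 ratio of -0.18 at 3Ws against normal mice, -0.16 at 3Ws against 2Ws and -0.00051 at 2Ws against normal mice, so ratios at 3Ws are read against that shift.

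The levels of the 10 genes spanned from 229 FPKM for Tnfrsf1a to 0.0596 FPKM for Fasl in normal mice. The order in normal mice was Tnfrsf1a, Tnfrsf1b, Tnfsf14, Fas, Ltbr, Tnfsf13b, Tnf, Cd40, Tnfsf10 and Fasl. Counting intervals of Tnfrsf1b and Tnfsf14 overlapped there, as did those of Fas and Ltbr, and every other neighbour in the order was separated by more than counting error. At 2Ws and 3Ws Tnfsf14 stood above Tnfrsf1b. At 3Ws the last places changed to Cd40, Fasl and Tnfsf10, whose neighbouring intervals overlapped, as did those of Tnfsf13b and Tnf.

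**Figure D1:**
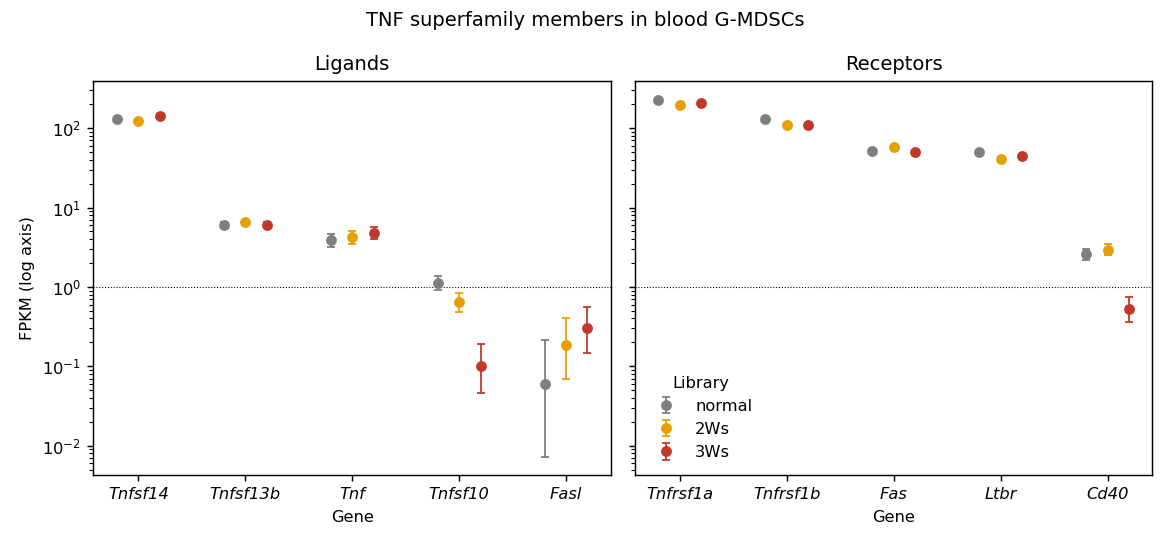
Level in FPKM (log axis) of 5 ligands and 5 receptors in 1 library each of normal, 2Ws and 3Ws mice, with bars for the 95% counting interval and a dotted line at 1 FPKM. Tnfrsf1a lies between 197 and 229 FPKM, Tnfsf10 stands at 0.10 FPKM at 3Ws against 1.13 in normal mice, and Cd40 at 0.533 against 2.59.

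Among the ligands, Tnfsf14 (LIGHT, which binds the lymphotoxin beta receptor and HVEM) was the most abundant. It had 129 FPKM in normal mice, 124 in 2Ws mice and 143 in 3Ws mice, about the 97th percentile of genes at or above 1 FPKM in each library. Its ratio of reads was 1.11 (95% interval 1.06 to 1.16) at 3Ws against normal mice and 0.962 (0.920 to 1.01) at 2Ws against normal mice. All 3 libraries were thus within a narrow band, with 3Ws the highest. The 3Ws interval lies above the median FPKM ratio of 0.860 over all genes that reached 1 FPKM in both libraries. Tnfsf14 lay at chr17:57189492-57194177, and its recovered reads were approximate because they did not come out whole.

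Tnf, the founding cytokine of the family, was a low-level transcript in these cells. It had 3.87 FPKM (110 reads) in normal mice, 4.24 FPKM (115 reads) in 2Ws mice and 4.75 FPKM (133 reads) in 3Ws mice. The ratio at 3Ws against normal mice was 1.23 (0.946 to 1.59), and at 2Ws against normal mice 1.09 (0.835 to 1.43). Both intervals include 1, while the 3Ws interval lies above the median FPKM ratio of 0.860 over all genes that reached 1 FPKM in both libraries. Tnfsf14 exceeded Tnf 33.3-fold in normal mice, 29.2-fold in 2Ws mice and 30.1-fold in 3Ws mice on the FPKM scale.

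Tnfsf13b encodes BAFF, the survival factor of B cells that myeloid cells are known to make. It was at 6.10 FPKM in normal mice, 6.48 in 2Ws mice and 6.05 in 3Ws mice, with 726, 737 and 710 reads. The 3Ws to normal ratio was 0.992 (0.893 to 1.10), and the highest library exceeded the lowest 1.07-fold. That interval lies above the median FPKM ratio of 0.860 over all genes that reached 1 FPKM in both libraries.

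Tnfsf10 encodes TRAIL, which triggers apoptosis through death receptors on other cells. It had 1.13 FPKM (103 reads) in normal mice, 0.643 FPKM (56 reads) in 2Ws mice and 0.10 FPKM (9 reads) in 3Ws mice. The 3 libraries stood in the order of time with tumor, and no counting interval overlapped the next. Reads were 1.76-fold lower (1.26 to 2.48) at 2Ws than in normal mice, 11.3-fold lower (5.72 to 25.4) at 3Ws than in normal mice, and 6.42-fold lower (3.15 to 14.8) at 3Ws than at 2Ws. On the log2(FPKM + 1) scale, which understates changes of low genes, the 3Ws to normal difference was -0.95 and missed the 2-fold rule. The summed FPKM of the cell type markers that moved with it are given with those of the receptors.

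Fasl, the ligand that kills Fas-bearing cells and a product of cytotoxic lymphocytes, was close to the floor of detection. It had 2 reads in normal mice, 6 in 2Ws mice and 10 in 3Ws mice, which is 0.0596, 0.187 and 0.302 FPKM. Its 3Ws to normal read ratio was 5.07 with an interval of 1.08 to 47.6, and it was under the 1 FPKM minimum in all libraries. Markers of NK cells summed to 9.82, 9.32 and 15.8 FPKM in normal, 2Ws and 3Ws mice and those of T cells to 8.82, 18.4 and 8.19 FPKM. Fasl was the only member left out of the counts against normal mice, and Tnfsf10 was also left out at 3Ws against 2Ws.

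Both TNF receptors were abundant. Tnfrsf1a (TNFR1, the death domain receptor at chr6:125349362-125362484) had 229 FPKM in normal mice, 197 in 2Ws mice and 204 in 3Ws mice, at the 98.2, 97.9 and 97.8 percentile of genes at or above 1 FPKM. Tnfrsf1b (TNFR2, a receptor that signals through TRAF2) had 130, 108 and 111 FPKM in the same order of libraries. The normal library was the highest for both. At 3Ws against normal mice the ratio of reads was 0.893 (0.868 to 0.919) for Tnfrsf1a and 0.849 (0.823 to 0.876) for Tnfrsf1b, beside a median FPKM ratio of 0.860 over all genes that reached 1 FPKM in both. At 2Ws, where that median was 1.00, the ratios were 0.862 (0.838 to 0.888) and 0.832 (0.806 to 0.859). Tnfrsf1a exceeded Tnfrsf1b 1.76-fold in normal mice, 1.82-fold in 2Ws mice and 1.85-fold in 3Ws mice.

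Ltbr, the lymphotoxin beta receptor that also binds LIGHT, lies next to Tnfrsf1a on chromosome 6, with 35476 bases and the gene Scnn1a between them. It had 50.4 FPKM in normal mice, 41.3 in 2Ws mice and 44.1 in 3Ws mice, and the ratios were 0.819 (0.767 to 0.875) at 2Ws and 0.875 (0.821 to 0.933) at 3Ws against normal mice. Like both TNF receptors, Ltbr was highest in the normal library. At 3Ws against 2Ws the ratio intervals of Ltbr (0.998 to 1.14) and Tnfrsf1b (0.987 to 1.06) include 1. That of Tnfrsf1a (1.01 to 1.07) lies just above 1. All of these intervals lie above the median FPKM ratio of 0.875 over genes that reached 1 FPKM in both libraries. The log2(FPKM + 1) differences at 2Ws against normal mice were -0.21 for Tnfrsf1a, -0.26 for Tnfrsf1b and -0.28 for Ltbr, all short of the 2-fold rule.

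Fas, the death receptor that FasL engages, was at 51.3 FPKM in normal mice, 57.2 in 2Ws mice and 50.7 in 3Ws mice. The ratio was 1.11 (1.05 to 1.19) at 2Ws and 0.989 (0.926 to 1.06) at 3Ws against normal mice, so the 2Ws library was the highest and the others were within counting error. The 3Ws interval lies above the median FPKM ratio of 0.860 over all genes that reached 1 FPKM in both libraries. Fas reads did not come out whole and are approximate.

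Cd40 was the one member that passed the fold rule. It encodes the costimulatory receptor of B cells and antigen-presenting cells, at chr2:165055627-165072948. Cd40 had 2.59 FPKM (153 reads) in normal mice, 2.94 FPKM (166 reads) in 2Ws mice and 0.533 FPKM (31 reads) in 3Ws mice. The first 2 libraries were within counting error of each other, and the 3Ws library stood below both. Reads were 4.86-fold lower (3.29 to 7.41) at 3Ws than in normal mice and 5.53-fold lower (3.75 to 8.39) at 3Ws than at 2Ws, and the log2(FPKM + 1) differences were -1.23 and -1.36.

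Counted over the members, 0 of 9 measured genes passed the 2-fold rule in either direction at 2Ws against normal mice, where 1.29% of 11269 genes were higher and 1.22% lower. At 3Ws against normal mice 0 of 9 were higher and 1, Cd40, was lower, where 2.6% of 11103 genes were higher and 7.89% lower. At 3Ws against 2Ws 0 of 8 were higher and 1, again Cd40, was lower, where 2% of 11119 genes were higher and 7.37% lower. One gene of 9 is near the share of all genes, so the count is no result about the members. Both comparisons with normal mice share the normal library and are not independent. With a pseudocount of 0.1 FPKM, or a 1.5-fold rule, Tnfsf10 joined Cd40 among the lower genes at 3Ws, where 17.5% and 23.6% of all genes were lower.

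**Figure D2:**
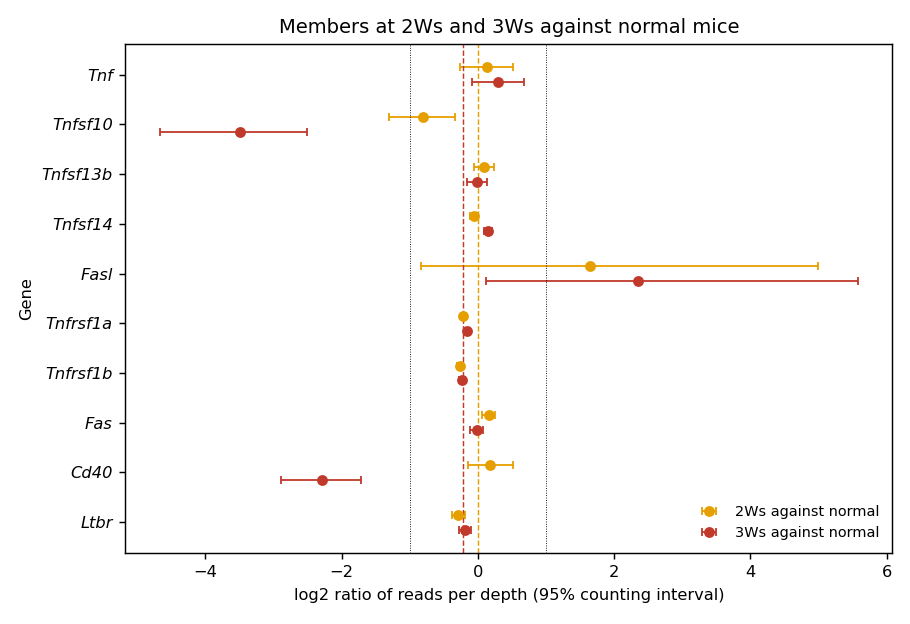
Log2 ratio of reads per depth for the 10 genes at 2Ws and 3Ws, each against normal mice, with 95% counting intervals. Dashed lines mark the median ratio of genes that reached 1 FPKM in both and dotted lines a 2-fold ratio. Tnfsf10 and Cd40 lie beyond the 2-fold line at 3Ws, the wide bars of Fasl rest on 10 reads or fewer, and the other 7 genes lie within 2-fold.

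Cd40 was examined beside B cell markers because B cells express it strongly. The 15 markers of B cells summed to 555 FPKM in normal mice, 714 in 2Ws mice and 130 in 3Ws mice, and none was at 0 in any library. At 3Ws 13 of the 14 measured markers passed the rule as lower against normal mice, with Ighm at 302, 364 and 74.1 FPKM and Cd79a at 68.2, 94.2 and 13.3 FPKM in normal, 2Ws and 3Ws mice. Cd40 stood at 0.467 FPKM per 100 FPKM of B cell markers in normal mice, 0.413 in 2Ws mice and 0.411 in 3Ws mice. Its level thus kept nearly the same ratio to this sum, of which Ighm was the largest part. The ratios of the receptor genes Tnfrsf13b and Tnfrsf13c to that sum, given below, were highest at 3Ws. The order 2Ws, normal, 3Ws was not particular to B cell markers. Platelet markers stood at 126, 153 and 31.5 FPKM in normal, 2Ws and 3Ws mice. T cell markers stood at 8.82, 18.4 and 8.19 FPKM and eosinophil markers at 26.2, 42.6 and 26.1 FPKM. In both, 3Ws was close to normal mice. Monocyte and macrophage markers and dendritic cell markers were also lowest at 3Ws but highest in normal mice. In bulk RNA, fewer cells of a type and less RNA per cell cannot be told apart. The part of any of these cells in the Cd40 value was not tested.

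Tnfsf10 was set beside the markers of other cells, since several lists were also lowest at 3Ws. Monocyte and macrophage markers summed to 1515, 1270 and 725 FPKM in normal, 2Ws and 3Ws mice, and 12 of 15 passed the rule as lower at 3Ws against normal mice. Dendritic cell markers summed to 92.2, 77.3 and 41.3 FPKM, tissue-resident macrophage markers to 247, 116 and 92.4 FPKM, and basophil and mast cell markers to 8.61, 3.51 and 0.909 FPKM. Platelet markers summed to 126, 153 and 31.5 FPKM. No marker of B cells, T cells, NK cells or monocytes and macrophages was at 0. Moving the other way at 3Ws, neutrophil identity markers summed to 43715, 49771 and 68763 FPKM and erythroid markers to 20.2, 8.57 and 97.1 FPKM. Most of the neutrophil sum was S100a9 (24594, 27455 and 37319 FPKM) and S100a8 (8385, 10195 and 14548 FPKM). Of the 14 neutrophil identity markers, 12 had a ratio above 1 at 3Ws against normal mice. By the rule 2 were higher and 0 lower, where 2.6% of all genes were higher and 7.89% lower. Granule markers of immature neutrophils did not share the rise of the neutrophil identity sum, at 4436, 2596 and 3121 FPKM in normal, 2Ws and 3Ws mice. Of 8 measured, 4 were lower and 1 higher at 3Ws against normal mice, where 7.89% of all genes were lower and 2.6% higher. The part of these cells in the Tnfsf10 value was not tested.

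**Figure D3:**
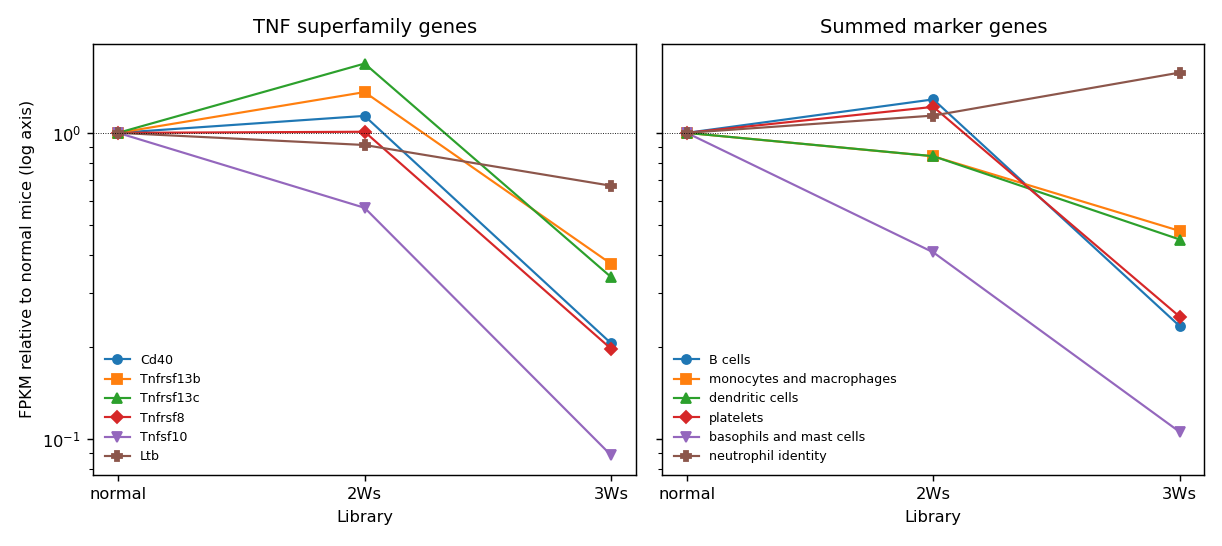
Level relative to normal mice (log axis) of 6 TNF superfamily genes, left, and of summed FPKM of 6 marker lists, right, across the normal, 2Ws and 3Ws libraries. At 2Ws Cd40 and Tnfrsf8 are within counting error of 1, while Tnfrsf13b and Tnfrsf13c are above it. At 3Ws all of these are below 1. B cell markers are above 1, then below it (714 FPKM at 2Ws and 130 at 3Ws against 555 in normal mice). Platelet markers are too (153 and 31.5 against 126 FPKM), and Tnfsf10 is below 1 at both times.

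Of 46 superfamily genes listed, 45 were in the tables, Edar being the one not found. Among them 7 ligands and 19 receptors reached 1 FPKM in at least 1 library, 19 genes stayed under it, and 3, Tnfsf4, Cd70 and Tnfsf15, were at 0 in every library. At 3Ws against normal mice 1 of 7 ligands was higher, 0 were lower, and the median log2 difference was -0.01. Of 19 receptors 0 were higher and 3 (Cd40, Tnfrsf8 and Tnfrsf13b) were lower, with a median of -0.16, beside a median of -0.24 over all 11103 genes, of which 2.6% were higher and 7.89% lower. Centred on the median shift, the receptor median was 0.02 and 1 receptor, Cd40, was lower. At 2Ws against normal mice no family gene passed the rule, with medians of -0.06 for 7 ligands and 0.01 for 18 receptors.

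**Figure D4:**
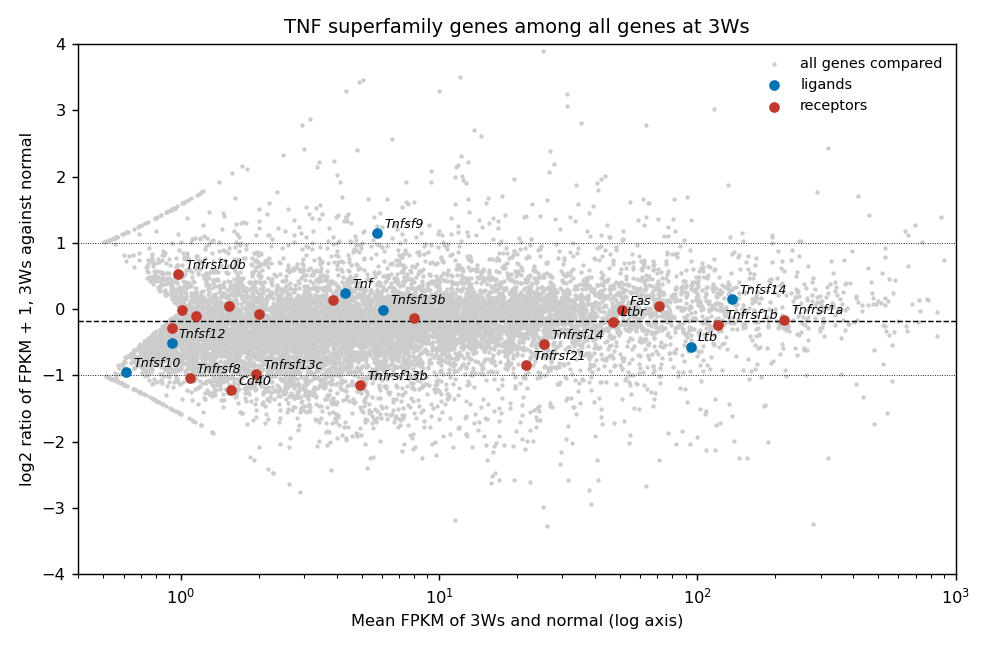
Log2 ratio of FPKM + 1 at 3Ws against normal mice plotted on mean FPKM of those libraries (log axis) for genes with at least 1 FPKM in 1 of them, with ligands and receptors of the family marked. Dotted lines mark 2-fold and the dashed line the median of -0.18 of genes that reached 1 FPKM in both libraries, and the axes are cropped, which leaves out the most abundant genes. Tnfsf9 stands above the upper line, Cd40, Tnfrsf13b and Tnfrsf8 stand below the lower one, and the abundant receptors lie near the dashed line.

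Ltb, whose product pairs with lymphotoxin alpha, was the second most abundant ligand. It had 113 FPKM in normal mice, 103 in 2Ws mice and 75.8 in 3Ws mice, a ratio of 0.672 (0.634 to 0.712) at 3Ws against normal mice. Tnfsf14 took 49.8% of summed ligand FPKM in normal mice, 50.8% in 2Ws mice and 59.7% in 3Ws mice, while Ltb took 43.7%, 42.3% and 31.7%. The balance of LIGHT to lymphotoxin beta transcripts in these libraries was thus 1.14, 1.2 and 1.88 in the same order. B cell markers summed to 555, 714 and 130 FPKM, and the part of B cells in the Ltb value was not tested. Ltb lies 3060 bases from Tnf on chromosome 17 with no gene between them, and Lta, on the far side of Tnf at 1157 bases, had only 4, 7 and 4 reads in normal, 2Ws and 3Ws mice.

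Tnfsf9, the ligand of 4-1BB, was the one family gene that passed the 2-fold rule as higher at 3Ws against normal mice. It was at 3.19 FPKM in normal mice, 2.26 in 2Ws mice and 8.28 in 3Ws mice, 2.60-fold higher (1.97 to 3.47) at 3Ws than in normal mice with a log2(FPKM + 1) difference of 1.15. Its reads did not come out whole and its exons share 192 bases with the antisense RNA gene Gm11110, so without strand the source of these reads cannot be told apart. Tnfrsf9, its receptor, had 0, 3 and 6 reads. Tnfsf12 (TWEAK) was low, at 1.26, 1.60 and 0.580 FPKM, with 15 reads at 3Ws, and shares exon bases with the read-through gene Tnfsfm13.

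Among the receptors of BAFF and APRIL, Tnfrsf13b and Tnfrsf13c were, like Cd40, lowest at 3Ws, and Tnfrsf17 had 1, 2 and 2 reads in normal, 2Ws and 3Ws mice. Tnfrsf13b (TACI, an antibody-regulating receptor of B cells) was at 7.18 FPKM in normal mice, 9.76 in 2Ws mice and 2.68 in 3Ws mice, 2.68-fold lower (2.18 to 3.30) at 3Ws than in normal mice. Tnfrsf13c (BAFF receptor) was at 2.92, 4.91 and 0.987 FPKM, and passed the rule at 3Ws against 2Ws, with a log2(FPKM + 1) difference of -1.57, but not at 3Ws against normal mice, where it was -0.98. Both were highest at 2Ws and lowest at 3Ws, like the B cell markers. Per 100 FPKM of those markers, Tnfrsf13b stood at 1.29, 1.37 and 2.07 FPKM and Tnfrsf13c at 0.526, 0.689 and 0.761 FPKM in normal, 2Ws and 3Ws mice. Tnfsf13b itself varied little in FPKM between libraries. The ligand exceeded Tnfrsf13b 2.26-fold at 3Ws on the FPKM scale, where the quotient was 0.849 in normal mice and 0.664 at 2Ws. The part of B cells was not tested.

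Tnfrsf8 (CD30) was at 1.80 FPKM in normal mice, 1.82 in 2Ws mice and 0.356 in 3Ws mice, 5.07-fold lower (3.16 to 8.52) at 3Ws than in normal mice. Per 100 FPKM of B cell markers Tnfrsf8 stood at 0.325, 0.255 and 0.274 FPKM, and the part of B cells was not tested. Tnfrsf8 lies 20266 bases from Tnfrsf1b, and the neighbours did not share their size of ratio. Cd27, a lymphocyte costimulatory receptor, was at 1.12, 1.40 and 0.730 FPKM with a ratio interval of 0.395 to 1.07. Tnfrsf10b, the mouse receptor of TRAIL, had 0.619, 0.381 and 1.33 FPKM in normal, 2Ws and 3Ws mice. Its ratio was 2.17 (1.58 to 3.02) at 3Ws against normal mice and it missed the rule at a log2(FPKM + 1) difference of 0.53. Reads of Tnfrsf10b, Tnfrsf13c, Tnfrsf12a and Tnfrsf21 did not come out whole and are approximate. Tnfsf10 and its receptor thus stood on opposite sides of the normal library at 3Ws.

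Other receptors were abundant. Relt was at 69.9, 64.6 and 72.4 FPKM in normal, 2Ws and 3Ws mice with a 3Ws to normal ratio of 1.04 (0.991 to 1.08). Tnfrsf14 (HVEM, a receptor of LIGHT) was at 30.3, 30.6 and 20.6 FPKM, and Tnfrsf21 (DR6, a death domain receptor) at 28.2, 25.3 and 15.2 FPKM. The last pair were lowest at 3Ws, with ratios of 0.682 (0.608 to 0.765) and 0.539 (0.5 to 0.581) against normal mice, and neither reached 2-fold. Tnfrsf1a made up 36.6% of summed receptor FPKM in normal mice, 35.0% in 2Ws mice and 37.7% in 3Ws mice, and Tnfrsf1b 20.9%, 19.2% and 20.4%, so their shares moved by less than 3 percentage points.

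The decoy TRAIL receptors of mice, Tnfrsf22 and Tnfrsf23, were at 1.22, 1.35 and 1.07 FPKM and at 8.39, 6.39 and 7.55 FPKM in normal, 2Ws and 3Ws mice. Tnfrsf26, from the same cluster on chromosome 7, was at 3.66, 3.85 and 4.11 FPKM. Tnfrsf23 and Tnfrsf26 share exon bases with an antisense gene. Tnfrsf4 (OX40) was at 2.07, 2.17 and 1.93 FPKM, Tnfrsf12a (the TWEAK receptor) at 1.5, 1.13 and 1.58 FPKM, and Tnfrsf18 (GITR) at 1.02, 0.952 and 0.999 FPKM. At 3Ws against normal mice the intervals of these 6 ratios include 1.

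The lists downstream of the receptors are read against the same shares of all genes, 2.6% higher and 7.89% lower at 3Ws against normal mice. Of 22 measured TRAF adaptors, receptor-proximal kinases and ligases, 0 were higher and 0 lower at 3Ws than in normal mice, with a median log2 difference of -0.16. Birc3 (cIAP2, a ubiquitin ligase of the TNFR1 complex and itself an NF-kB target) was at 41.1, 39.7 and 67.1 FPKM in normal, 2Ws and 3Ws mice. Traf5, an adaptor of CD40 and related receptors, was at 2.14, 2.51 and 0.795 FPKM. Map3k5 (ASK1) was at 63.6, 62.7 and 52.8 FPKM and Tab2 at 50.6, 51.2 and 60.2 FPKM.

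Deubiquitinases and inhibitors likewise had 0 higher and 0 lower of 11, with a median of -0.14 at 3Ws against normal mice. Nfkbia (IkappaB alpha, the inhibitor that NF-kB itself induces) was at 108, 70.7 and 114 FPKM in normal, 2Ws and 3Ws mice, lowest at 2Ws. Nfkbie was at 9.96, 8.68 and 4.55 FPKM, Tnfaip3 (A20) at 7.31, 6.31 and 4.83 FPKM, and Tax1bp1 at 27.9, 30.1 and 33.7 FPKM. Nfkbie came closest to the rule, at a log2(FPKM + 1) difference of -0.98.

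Death receptor apoptosis genes had 0 higher and 1 lower of 15 at 3Ws against normal mice, with a median of -0.28, and 1 of 15 is near the 7.89% of all genes. The lower gene was Bax, a pore-forming killer of mitochondria, at 6.19, 5.06 and 2.12 FPKM in normal, 2Ws and 3Ws mice (2.92-fold lower at 3Ws than in normal mice). Bid, which links death receptors to Bax, was at 38.7, 39.6 and 26.8 FPKM, and Cycs at 5.88, 4.92 and 2.94 FPKM.

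Genes that shed TNF and its receptors had 0 higher and 0 lower of 7 at 3Ws against normal mice, with a median of -0.17. Furin, which activates the sheddase ADAM17, was at 57.8, 52.3 and 57.8 FPKM in normal, 2Ws and 3Ws mice. Rhbdf2 (iRhom2, needed for ADAM17 maturation in myeloid cells) was at 40.0, 37.4 and 35.2 FPKM, Frmd8 at 20.5, 17.9 and 15.9 FPKM, and Sppl2b at 5.31, 4.56 and 4.16 FPKM. Regulators of Tnf mRNA decay and translation had 1 higher and 0 lower of 14, with a median of -0.11, where 2.6% of all genes were higher and 7.89% lower. The higher one was Zfp36l1, a zinc finger protein that marks AU-rich mRNAs for decay, at 13.4, 12.4 and 27.9 FPKM (2.09-fold higher at 3Ws than in normal mice). Its relative Zfp36l2 was at 300.1, 303 and 289 FPKM, Dusp1, a phosphatase of p38, at 687, 679 and 753 FPKM, and Khsrp at 19.7, 18.0 and 13.7 FPKM.

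NF-kB target genes of TNF had 2 higher and 2 lower of 21 at 3Ws against normal mice, with a median of -0.11, where 2.6% of all genes were higher and 7.89% lower. Cxcl2, a neutrophil chemokine, was at 2.90 FPKM in normal mice, 5.73 in 2Ws mice and 24.3 in 3Ws mice, 8.38-fold higher (6.83 to 10.4) at 3Ws than in normal mice. Ier3, an early gene that limits apoptosis, was at 31.8, 32.3 and 98.4 FPKM, 3.09-fold higher (2.82 to 3.39) at 3Ws than in normal mice. The lower genes were Ccl3 and Cd83, named here after their values were seen, and 1 of the 21 genes was lower when ratios were centred on the median. Il1b, at 1635, 1947 and 1885 FPKM, and Cd44, at 338, 345 and 376 FPKM, were the most abundant targets and stayed within 2-fold. At 2Ws against normal mice no gene of these 6 downstream lists passed the rule.

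**Figure D5:**
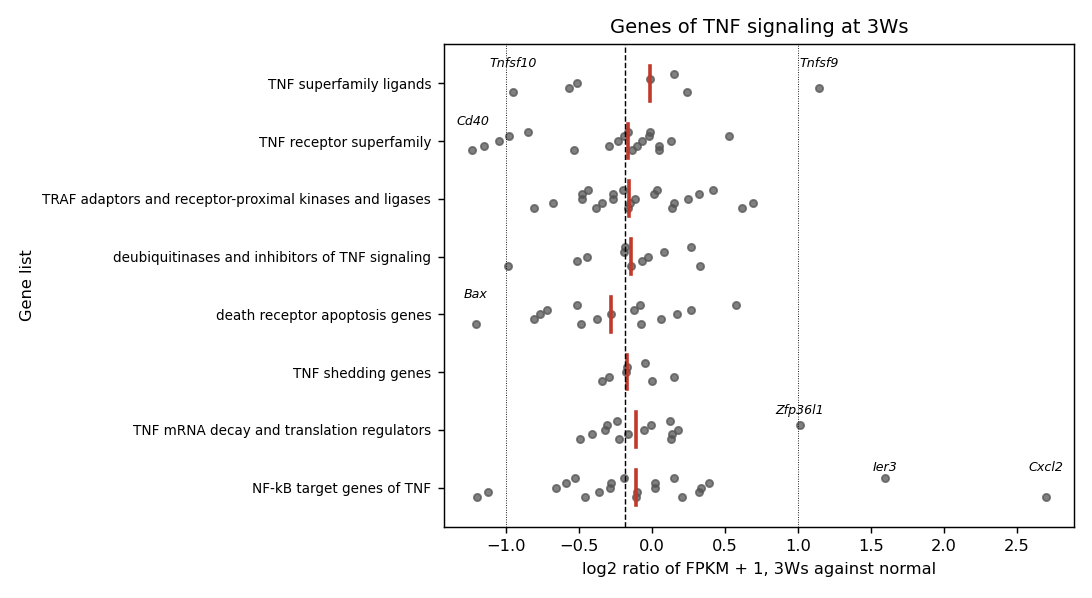
Log2 ratio of FPKM + 1 at 3Ws against normal mice for each measured gene of 8 lists, 1 point per gene, with red bars at list medians. Dotted lines mark 2-fold and the dashed line the median of -0.18 of all genes that reached 1 FPKM in both libraries. List medians lie between -0.28 and -0.01, and single genes such as Cxcl2, Ier3, Tnfsf9, Zfp36l1, Bax and Cd40 lie beyond 2-fold.

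The genes most like Tnfsf10 and Cd40 were sought over the log2(FPKM + 1) differences at 2Ws and at 3Ws against normal mice, among 5665 protein-coding genes with at least 5 FPKM in 1 library. Nearest to Tnfsf10 by Euclidean distance were Psmb5, Hk2 and Chac1, with Psmb5 (distance 0.00826) at 12.9 FPKM in normal mice, 9.64 in 2Ws mice and 6.19 in 3Ws mice. Among the 3 nearest to Cd40 were Hspe1 and Eci1, with Hspe1 (distance 0.0418) at 5.36, 5.90 and 1.79 FPKM in the same order of libraries. The scale sets which genes are near: Psmb5 was closest on log2(FPKM + 1), although the reads of Tnfsf10 were 11.3-fold lower at 3Ws than in normal mice. The likeness rests on 3 libraries and 2 differences that share the normal library, and it is given as a description.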

How the data were processed

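RNA of CD11b+Gr1+ blood cells was sequenced on an Illumina instrument as 1 library each of normal, 2Ws and 3Ws mice. The authors deposited FPKM per Ensembl gene. The submitters' processing notes name HISAT2 2.1.0, Bowtie2 2.2.3 and GRCm38. Neither the annotation release nor the strand setting is given in the sources used here. Genes were named and placed through GENCODE M21 (26588 of 26655 IDs named). Multiplying FPKM by exon length and by a library total gave reads back, and 20743 of 23378 genes above 0 came out whole within 0.001 reads. Recovered reads sum to 106% of those totals in each library. Log2 ratios used FPKM plus a pseudocount of 1, for genes that reached 1 FPKM in either library, and a 2-fold rule marked calls. Intervals are exact Clopper-Pearson intervals (95%) on reads and cover counting error only. The 10 genes and all lists were chosen with earlier results of these data known. Named genes were all members and family genes that reached 1 FPKM in any library. In each other pathway list they were the 2 highest by mean FPKM and the 2 with the largest 3Ws to normal log2 difference in either direction. In marker lists the 2 highest by mean FPKM could be named. Some genes that the rule names are not reported here. Alternatives were another pseudocount, filter, fold rule, centring, removal of mitochondrial, hemoglobin and immunoglobulin genes, scaling to Actb and an exact binomial test on reads, which compares libraries and not conditions. Scripts were tested on simulated data. Work ran in Python 3.11.15 with scipy 1.17.1, pandas 2.3.3, numpy 2.4.6, and figures in matplotlib 3.10.9.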

Additional observations from a re-analysis of the deposited data

Results flagged for a closer look

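Some receptors lay on one side of normal mice at 2Ws and on the other at 3Ws beyond counting error, and the difference was not tested between conditions because each rests on 1 library. Tnfrsf10b had a ratio of reads of 0.6137 at 2Ws and 2.169 at 3Ws against normal mice. At 2Ws and in normal mice Tnfrsf10b was under 1 FPKM, so its 2Ws side failed the filter on low values, and its reads, like those of Tnfrsf13c, are approximate. The ratio of Tnfrsf13b was 1.358 at 2Ws and 0.3737 at 3Ws. That of Tnfrsf13c was 1.681 at 2Ws and 0.3415 at 3Ws.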

How the results depend on the processing

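Cd40, the only member with a call, did not reverse it under any alternative run. A reversal was counted only for differences that reached the 2-fold rule, so the other members could not show one. Small differences did change sign. At 3Ws against normal mice, centring took Tnfrsf1a from -0.1620 to 0.0197, Fas from -0.0161 to 0.1656 and Tnfsf13b from -0.0096 to 0.1722. The count of lower members at 3Ws against normal mice was 1, and became 2 with a pseudocount of 0.1 FPKM, 2 with the 1.5-fold rule and 0 with a filter of 5 FPKM. At 3Ws against 2Ws it was 1 and became 0 with a filter of 5 FPKM; the filter leaves out Cd40 by construction. At 3Ws against normal mice with a pseudocount of 0.1 FPKM the lower count was 1 among family ligands, 1 among TRAF adaptors, 1 among inhibitors and 2 among apoptosis genes. Lower receptors numbered 1 when centred on the median and 1 with the 5 FPKM filter, and the centred receptor median was 0.0197. Lower NF-kB targets numbered 1 when centred and 1 with the 5 FPKM filter. Relative to Actb, medians at 2Ws against normal mice were 0.1137 for TRAF adaptors, 0.0986 for mRNA decay regulators and 0.1119 for NF-kB targets. Beyond what each setting does by construction, the cause was not tested. Of 48 member counts 44 kept within 1.5 times. Counts of 0 in the main run stayed 0 under every alternative. The 4 that moved were all lower counts at 3Ws, which rest on Cd40. Of 120 member log2 differences, 97 moved by less than the distance from the midpoint to an end of the counting interval. That interval belongs to the log2 ratio of reads. No paired analysis was possible because each group holds 1 library. Depth limits Fasl and the genes under 1 FPKM most.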
